A study of Mus musculus with 20 samples.

Results

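Expression of 31 genes of glucose breakdown and of the response to low oxygen was compared between pancreatic islets of P2Y14-knockout and wild-type mice. The genes were chosen by name and found through their Ensembl identifiers, and all 31 were among the 26211 genes of the deposited count table. They comprise 15 glycolytic genes, counting the glucose carrier Slc2a1, and 16 genes that hypoxia-inducible factor (HIF) is known to switch on. Glycolysis turns glucose into pyruvate in the cytosol. HIF is a transcription factor made of an alpha subunit and Arnt: with enough oxygen, prolyl hydroxylases of the Egln family mark the alpha subunit, Vhl then directs its destruction, and in low oxygen it escapes and activates glycolytic enzymes among many other genes. In beta cells, the low-affinity carrier Slc2a2 brings glucose in, and its breakdown drives insulin release. Isolated islets have lost their blood supply and depend on diffusion of oxygen.

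The 10 knockout and 10 wild-type libraries were RNA-seq of islets from mice on a C57BL/6 x 129S6 background. The islets were freed from the pancreas with the enzyme mix Liberase, picked under a stereomicroscope and cultured overnight before RNA was taken, in both groups alike. P2ry14 encodes P2Y14, a G protein-coupled receptor for UDP-sugars. How the gene was inactivated and the age and sex of the mice are not in the labels. Whether the libraries of a group were separate animals is not stated either, so p-values measure only the spread between these libraries, which may be technical. The series' title asks about insulin release, and the labels name no oxygen or glucose treatment.

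Depth ranged from 34520628 to 199847246 reads over genes (median 92323083 for knockout and 105776893 for wild-type). Values are normalized reads, that is read counts per gene that the authors scaled by library. Differences were tested with limma on log2 of the value plus 1, and adjusted p-values are over all 17482 genes tested. P2ry14 itself was listed at 51.2 ± 31.4 normalized reads (SD, n = 10) in knockout and 151 ± 67.4 (n = 10) in wild-type islets. Its knockout values ran from 0 to 114 with a median of 44.8 and its wild-type values from 79.7 to 262 with a median of 118, so the groups overlapped. The log2 difference was -1.97 (SE 0.59), with an adjusted p of 0.244 in limma and 0.0144 in DESeq2. Markers of insulin-producing beta cells took 13.5% to 44.1% of reads, so the tissue matched its label. Markers of acinar cells, the enzyme-secreting cells around the islets, took 6.34% to 32.9% (median 24.1% for knockout and 22.4% for wild-type). In such bulk samples, fewer cells of a type and less RNA per cell cannot be told apart.

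Levels per gene length showed which of the 31 RNAs were most abundant. Per kilobase of exon, averaged over all 20 libraries, Aldoa, the main aldolase, stood highest at 12718 normalized reads, ahead of the blood vessel growth factor Vegfa at 7012. Next came Ndrg1, a stress-response gene, at 1995, then pyruvate kinase Pkm at 1509, triose phosphate isomerase Tpi1 at 1506 and phosphofructokinase Pfkm at 1417. Enolase Eno2 followed at 992. The lowest were hexokinase Hk2 at 9.68, the vasodilator peptide gene Adm at 9.12 and the lactate exporter Slc16a3 at 6.62. Slc2a1, the glucose carrier of most cell types, reached 82.7 per kilobase. These levels, and the order of genes close in level, depend on the gene length used. Exons of Pkm span 5001 bases where its longest coding transcript has 2432, and those of Pfkm 3340 where it has 2879.

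For genes that share much of their sequence with other genes the level is uncertain. Gapdh, glyceraldehyde phosphate dehydrogenase, stood at 21.3 per kilobase, far below Aldoa and Tpi1, which act just before it. Of all stretches of 50 bases in its longest transcript, 82.5% also occurred in a transcript of another gene. The share was 72.2% for Eno1, 68.0% for phosphoglycerate kinase Pgk1, 62.4% for the mitophagy receptor Bnip3, 41.5% for phosphoglycerate mutase Pgam1 and 34.4% for Pkm. For Gapdh, 89 other genes held at least 100 of these stretches. Of those, 29 were in the table, 28 of them pseudogenes, and together they held 161 ± 15.8 normalized reads in knockout and 185 ± 45 in wild-type libraries (SD, n = 10 each). For Eno1 such genes held 554 and 495 (means, knockout and wild-type), beside its own 463 and 345. For Pgam1 they held 258 and 263, beside its own 127 and 121. They held less for Pgk1 (16.2 and 14.7) and Bnip3 (111 and 105). Gpi1 shared 25.3% of its stretches, and 1 such pseudogene in the table held 1630 and 1561, beside its own 1851 and 1756. The sources used here do not give how reads with several matches were counted, and its part in these levels was not tested.

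**Figure D1:**
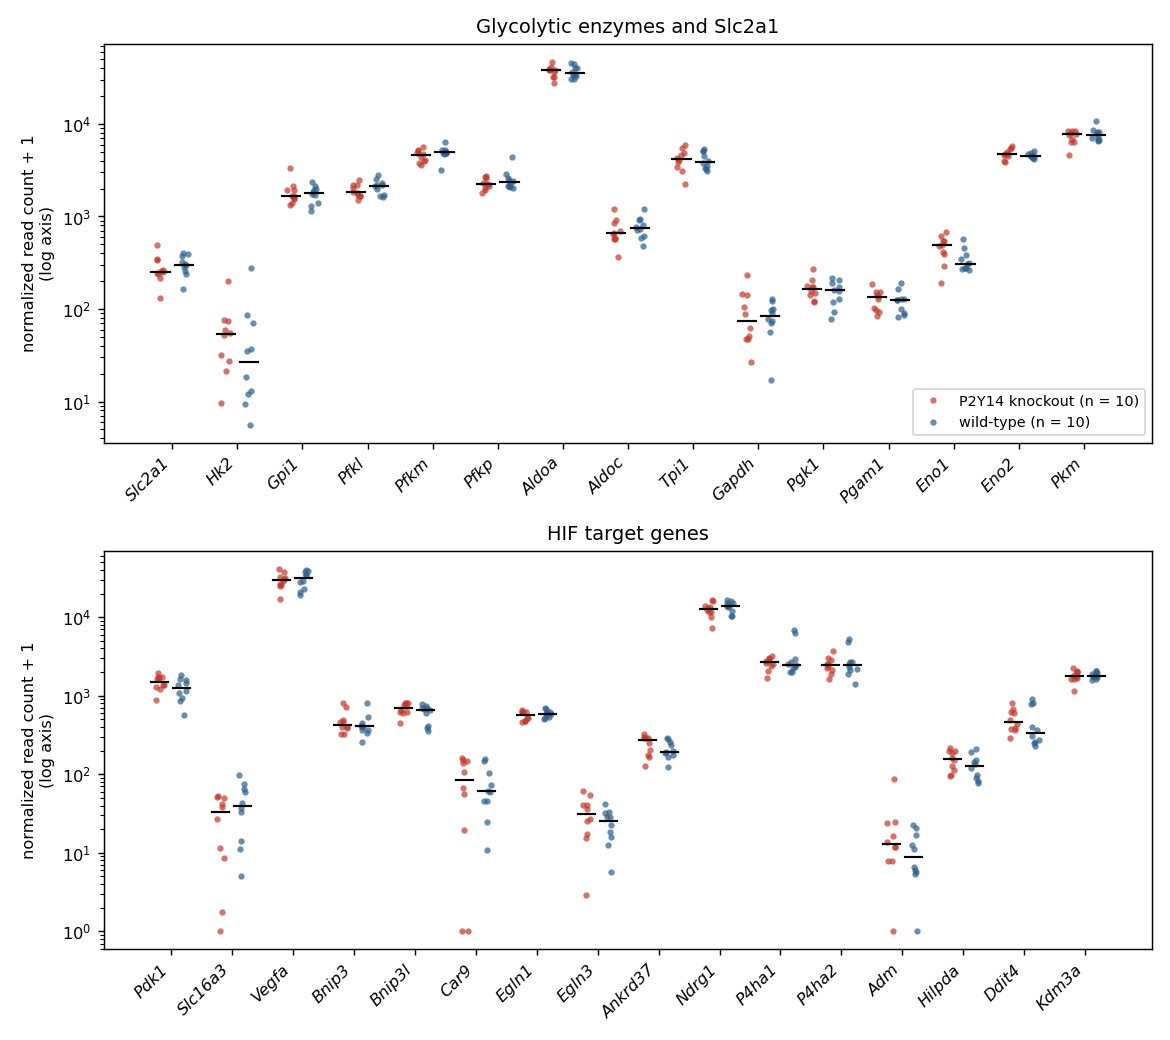
Normalized read counts plus 1 (log axis) of the 15 glycolytic genes (top) and the 16 HIF target genes (bottom). Each point is a library, red for knockout and blue for wild-type (10 each), and each black line is the group's median. For all 31 genes the ranges of the groups overlap.

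None of the 15 glycolytic genes passed the test for a difference between genotypes. In limma, 0 of 15 passed an adjusted p of 0.05, where 0.28% of all 17482 genes tested did (49 genes), and 0 of 15 had an unadjusted p below 0.05, against 8.94% of all genes. edgeR's quasi-likelihood test, which called 0.246% of all genes, and DESeq2, which called 0.784%, also called 0 of 15. The log2 difference, knockout over wild-type, was positive for 9 genes and negative for 6. Its median over the 15 was 0.01, beside -0.0022 over all genes, and it ran from -0.16 for Aldoc to 0.67 for Hk2. With each library left out in turn, that of Hk2 lay between 0.41 and 1.03. The 95% interval lay within a 2-fold change in either direction for 14 genes, all but Hk2, and within 1.5-fold for 12. Over all genes, 75.1% of intervals lay within 2-fold and 48.4% within 1.5-fold.

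Glucose entry and the first phosphorylation are the work of the carriers and hexokinases. Slc2a1 ranged from 130 to 490 (median 253) in knockout and from 165 to 401 (median 301) in wild-type libraries. Hk2 (ENSMUSG00000000628), a hexokinase that HIF induces in many cells, ranged from 8.58 to 202 (median 52.6) in knockout and from 4.64 to 277 (median 25.7) in wild-type libraries. The groups of both genes overlapped over most of their range, and 1 library stood far above the rest in each group for Hk2: 202 in knockout 10, where the next was 74.5, and 277 in wild-type 13, where the next was 86.2. Hk2 means were 59.9 ± 54.6 and 55.7 ± 82.4 (SD, n = 10 each), a ratio of 1.08. Its difference of mean log values was 0.67 (SE 0.62, limma adjusted p 0.783), and in edgeR it was 0.10 (adjusted p 0.977). Hk2 rested on 6 to 352 reads per library.

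Phosphofructokinase commits the sugar to glycolysis, and islets held all 3 of its subunits. Pfkl, the liver form, was listed at 1522 to 2465 (median 1823) in knockout and 1627 to 2841 (median 2148) in wild-type libraries. Pfkp, the platelet form, was listed at 1788 to 2730 (median 2248) in knockout and 2030 to 4412 (median 2338) in wild-type libraries. Pfkm, the muscle form, had means of 4544 ± 692 and 4923 ± 775 (SD, n = 10 each). All 3 medians or means were lower in knockout islets by less than the spread between libraries: the log2 differences were -0.14 (SE 0.11), -0.13 (SE 0.12) and -0.11 (SE 0.11), with limma adjusted p of 0.735, 0.778 and 0.790. Wild-type library 20 held both the highest Pfkp (4412, next 2860) and the lowest Pfkm (3161, next 4701) of its group.

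Aldolase to pyruvate kinase form the lower part of the pathway. Aldoa had one of the smallest spreads of the 31 genes, at 37134 ± 5254 in knockout and 36909 ± 5316 in wild-type libraries (SD, n = 10 each), a log2 difference of 0.01 (95% interval -0.20 to 0.22). Eno2, the neuronal enolase that endocrine cells also make, had 4792 ± 616 and 4542 ± 270, a log2 difference of 0.07 (95% interval -0.09 to 0.23). These were the narrowest intervals of the 15 genes. Tpi1 had 4192 ± 1106 and 4099 ± 855, Pkm 7301 ± 1232 and 7789 ± 1256, and Gpi1, the isomerase that feeds phosphofructokinase, 1851 ± 572 and 1756 ± 373. Their log2 differences were 0.01, -0.10 and 0.06. Knockout library 10 was the highest of 20 for Aldoa, Tpi1, Gpi1 and Slc2a1, 4 of the 15 genes, and for 15.9% of all genes.

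Eno1 (ENSMUSG00000063524), the enolase found in nearly all cells, had the smallest p-value of the 31 genes. Its reads, 189 to 670 (median 485) in knockout and 263 to 573 (median 307) in wild-type libraries, overlapped, and 8 of 10 knockout libraries lay above the wild-type mean of log2 values. The log2 difference was 0.38 (SE 0.20, 95% interval -0.04 to 0.81), with an unadjusted p of 0.0715 and an adjusted p of 0.599 in limma, so it did not pass. Gapdh ranged from 25.7 to 231 (median 74.1) in knockout and from 16.2 to 127 (median 83.4) in wild-type libraries, on 10 to 246 reads. Pgk1 ranged from 119 to 267 (median 162) and from 76.2 to 214 (median 158). Pgam1 had means of 127 ± 33.6 and 121 ± 35.6, and Aldoc, the brain aldolase, 704 ± 229 and 778 ± 210 (SD, n = 10 each). As given above, Eno1, Gapdh, Pgk1 and Pgam1 share much of their sequence with other genes.

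**Figure D2:**
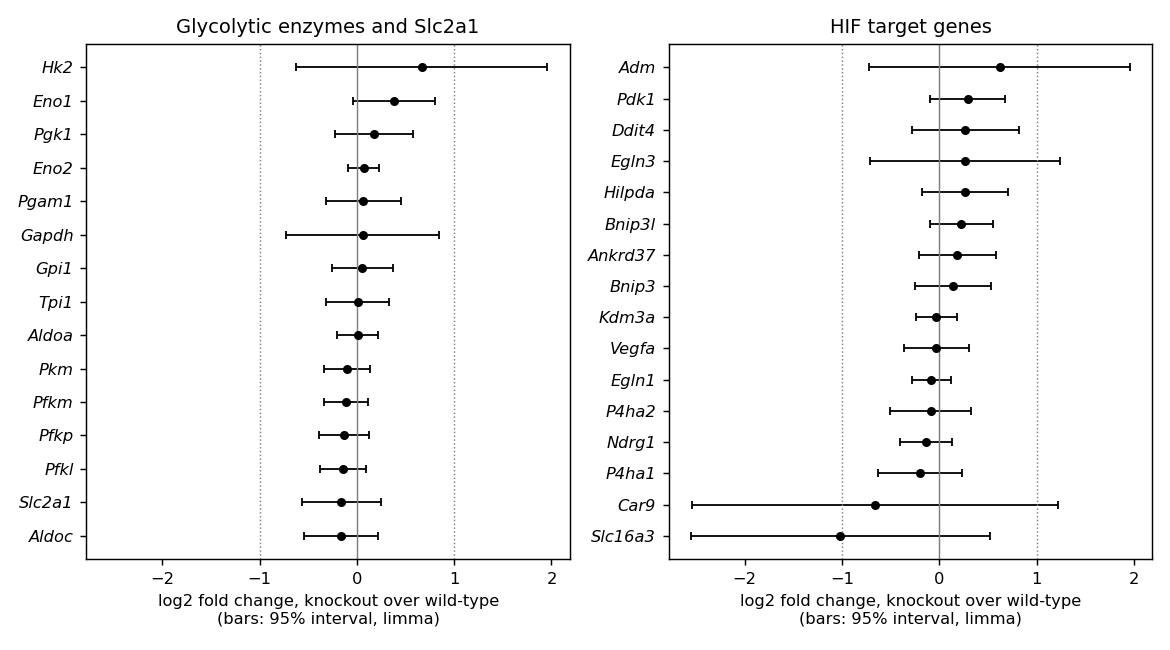
Log2 fold change, knockout over wild-type, of each glycolytic gene (left) and HIF target gene (right), with its 95% interval from limma (10 libraries a group). Dotted lines mark a 2-fold change either way. Every interval spans 0, and the widest belong to Hk2, Adm, Car9 and Slc16a3, the 4 genes that varied most between libraries on the log scale.

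None of the 16 HIF target genes passed the test either. In limma, 0 of 16 passed the adjusted threshold and 0 of 16 had an unadjusted p below 0.05, and edgeR and DESeq2 called none. Log2 differences were positive for 8 and negative for 8, with a median of 0.05 and a range from -1.02 for Slc16a3 to 0.62 for Adm. With each library left out in turn, these extremes lay between -1.31 and -0.57 for Slc16a3 and between 0.29 and 1.03 for Adm. The smallest adjusted p was 0.663. Intervals lay within 2-fold for 12 of 16 and within 1.5-fold for 8. Knockout and wild-type values overlapped for all 31 genes of both groups, where they did not overlap for 0.0343% of all genes.

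The secreted factors and the lactate carrier differed widely in level. Vegfa (ENSMUSG00000023951), the most abundant HIF target, ranged from 16885 to 41147 (median 29784) in knockout and from 19274 to 40101 (median 31506) in wild-type libraries. The groups covered almost the same range, and the log2 difference was -0.03 (SE 0.16, 95% interval -0.36 to 0.30, limma adjusted p 0.969). Slc16a3, which carries lactate out of cells, ranged from 0 to 51.4 (median 31.8) in knockout and from 4.11 to 95.6 (median 38.8) in wild-type libraries. Its log2 difference of -1.02 (SE 0.74, limma adjusted p 0.707) rested on low values: knockout library 7 was at 0, which allows up to 6.11 normalized reads, knockout library 3 was at 0.768, and with a pseudocount of 10 the difference was -0.53. Adm had means of 19.7 ± 24.4 and 9.87 ± 7.25 on 0 to 56 reads, with 1 library at 0 in each group and 86.0 in knockout 10, where the next knockout value was 24.0.

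Among metabolic and pH genes, Pdk1 (ENSMUSG00000006494), the kinase that turns off pyruvate dehydrogenase, ranged from 892 to 1933 (median 1495) in knockout and from 573 to 1833 (median 1261) in wild-type libraries. It had the smallest p of the 16, and 9 of 10 knockout libraries lay above the wild-type mean of log2 values. The log2 difference of 0.29 (SE 0.18, 95% interval -0.09 to 0.67, limma adjusted p 0.663) was within the spread between libraries. Hilpda, a lipid droplet protein that blocks fat breakdown, ranged from 94.5 to 212 (median 156) and from 76.6 to 210 (median 128), a log2 difference of 0.26 (SE 0.21, limma adjusted p 0.741). The groups of both genes overlapped over most of their range. Car9, a carbonic anhydrase at the cell surface, showed no settled direction: its mean log difference was -0.66 (SE 0.91), or -0.92 to -0.081 with each library left out, while edgeR gave 0.22 and its means were 84.1 ± 64.6 in knockout and 72.2 ± 49.5 in wild-type libraries. Knockout libraries 5 and 7 were listed at 0 for Car9, which allows up to 4.62 and 6.11 normalized reads.

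The mitophagy receptors Bnip3 and Bnip3l mark mitochondria for removal. Bnip3l ranged from 444 to 815 (median 693) in knockout and from 358 to 785 (median 665) in wild-type libraries, and 9 of 10 knockout libraries lay above the wild-type mean of log2 values. The log2 difference was 0.23 (SE 0.16, limma adjusted p 0.692), and wild-type libraries 17, 18 and 19 held the 3 lowest values of all, 415, 386 and 358. Bnip3 had means of 476 ± 158 and 434 ± 151 (SD, n = 10 each), with 812 in wild-type library 20 against 531 in the next of that group.

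Egln1 and Kdm3a were among the steadiest of the 31 genes. Egln1, the main HIF prolyl hydroxylase, had 562 ± 76.6 in knockout and 592 ± 64.4 in wild-type libraries (SD, n = 10 each), a log2 difference of -0.08 (95% interval -0.28 to 0.12). The histone demethylase Kdm3a had 1801 ± 312 and 1818 ± 175, a difference of -0.03 (95% interval -0.24 to 0.18). As ratios the intervals ran from 0.826 to 1.08 and from 0.846 to 1.13. Egln3, which HIF induces strongly in many cells, was low at 31.1 ± 18.1 and 22.9 ± 11, on 2 to 83 reads. Ankrd37, an ankyrin repeat protein, had 242 ± 69.4 and 209 ± 53.6, and Ndrg1 had 12618 ± 2714 and 13701 ± 2154. Ddit4, which restrains the growth kinase mTOR, had 503 ± 163 and 457 ± 263.

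HIF subunits and regulators, which are not among the 31 genes, did not pass either. Hif1a, the alpha subunit, had 2801 ± 352 in knockout and 3058 ± 544 in wild-type libraries, a log2 difference of -0.12 (limma adjusted p 0.772). For Epas1, the related alpha subunit, the difference was 0.01 (adjusted p 0.993). For Arnt it was -0.02 (adjusted p 0.973) and for Vhl -0.08 (adjusted p 0.931). These values are RNA levels, while HIF is known to be set mainly by destruction of its protein.

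Enzymes that come in several forms were also compared as shares of their family, in reads per kilobase. Pfkm led the phosphofructokinases with 74.9% ± 1.60 in knockout and 74.2% ± 4.40 in wild-type libraries (SD, n = 10 each), and Aldoa held 98.1% and 98.0% of the aldolase reads. Eno2 held 55.4% ± 7.41 of enolase reads in knockout and 60.7% ± 8.08 in wild-type libraries, the muscle form Eno3 40.0% and 35.3%, and Eno1 4.67% ± 1.5 and 3.95% ± 0.767. These shares move with the gene length used: per kilobase of the longest transcript, the means over all 20 libraries were 64.5% for Eno2, 27.9% for Eno3 and 7.55% for Eno1, in place of 58.0%, 37.7% and 4.31%. Egln2, the prolyl hydroxylase that HIF does not induce, held 83.5% and 81.6%, and Egln1 15.4% ± 3.27 and 17.5% ± 1.58. Of 10 shares tested by two-sided permutation of the libraries (100000 resamples), none passed after adjustment over the 10. The smallest p was 0.0848 for Egln1 (adjusted 0.637), and for Eno2 it was 0.139 (adjusted 0.637).

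**Figure D3:**
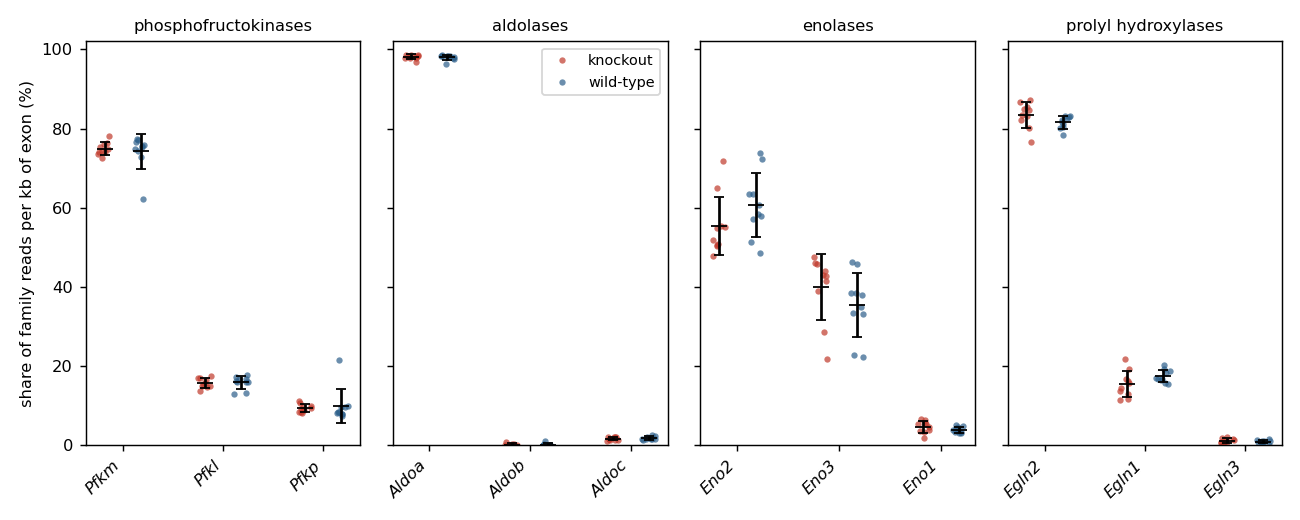
Share of each family's reads per kilobase of exon (%) held by each enzyme form, for phosphofructokinases, aldolases, enolases and HIF prolyl hydroxylases. Points are libraries (red knockout, blue wild-type), bars the mean ± SD of 10 libraries. Wild-type library 20 stands apart in the phosphofructokinases with 21.7% Pfkp and 62.3% Pfkm.

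P4ha1 (ENSMUSG00000019916) and P4ha2 (ENSMUSG00000018906) are alpha subunits of the prolyl hydroxylase that matures collagen, and both were high in the same 2 wild-type libraries. P4ha1 had 2590 ± 448 normalized reads in knockout and 3245 ± 1811 in wild-type libraries, and P4ha2 had 2498 ± 588 and 2804 ± 1270 (SD, n = 10 each). P4ha1 stood at 6935 and 6309 in wild-type libraries 19 and 20, and at 1689 to 3177 (median 2513) in the other 18. P4ha2 stood at 5330 and 4854 in the same libraries, and at 1409 to 3666 (median 2370) elsewhere. The other 8 wild-type libraries had 2401 ± 343 for P4ha1 and 2232 ± 435 for P4ha2 (SD). With all libraries the log2 difference between genotypes was -0.19 (SE 0.21) for P4ha1 and -0.09 (SE 0.20) for P4ha2, and without libraries 19 and 20, left out after their values were seen, it was 0.10 (limma adjusted p 0.852) and 0.15 (adjusted p 0.809).

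The pattern was not particular to these genes, and both libraries stood apart in many others. Wild-type library 19 was the highest of 20 for 1635 of 17482 genes and the lowest for 1270. For library 20 these numbers were 1539 and 1164. Other libraries stood apart as well: knockout 10 had the largest numbers, 2774 and 1990, and knockout 5 had 1392 and 1511. At the low end, knockout 1 had 241 and 193. Libraries 19 and 20 were the highest pair in 2 of the 31 genes, P4ha1 and P4ha2. The pair was picked after the values of these 2 genes were seen, so that count is no result about the module. The same held in 3 of 74 other pathway genes and in 307 of all 17482 genes (1.76%). Those other pathway genes included the collagen lysyl hydroxylase Plod1 (3411 and 3247, others up to 2195) and the transferrin receptor Tfrc (2384 and 2481, others up to 1841). P4ha1 was among 18 genes (0.103%) for which both libraries exceeded every other by more than 1.5 times. P4ha2 was not, with the lower of the pair at 1.32 times the highest other library. As the pair was picked from the values of these genes, this too is a description. The chaperone genes Hsp90aa1 and Hspa4l were picked because they were high in these libraries, so their values are a description. Hsp90aa1 stood at 9288 and 6640, where no other library exceeded 2520, and Hspa4l at 7341 and 4495, where no other exceeded 2563. Their part in the P4ha1 and P4ha2 values was not tested. Ddit4 was high in libraries 19 and 20 too (802 and 899), but also in wild-type 14 (784) and knockout 10 (802).

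**Figure D4:**
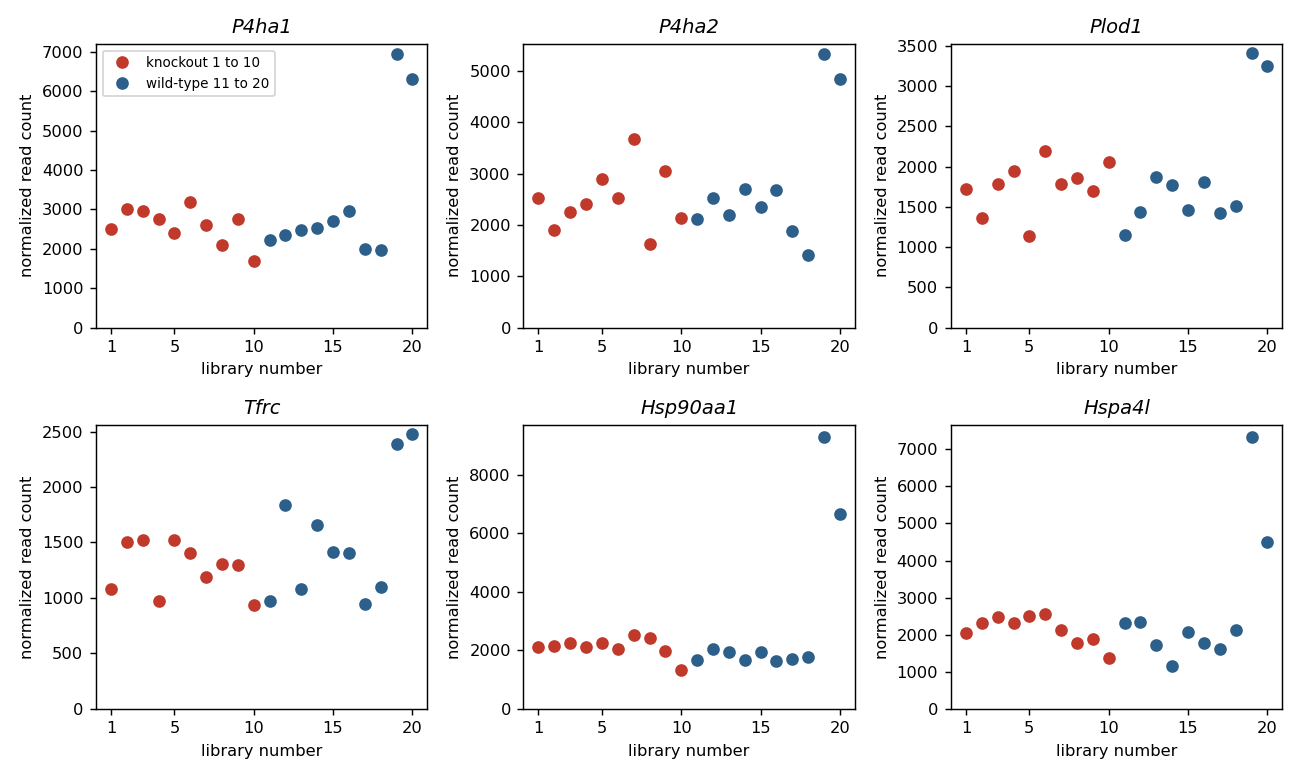
Normalized read counts of P4ha1, P4ha2, Plod1, Tfrc and the chaperone genes Hsp90aa1 and Hspa4l, picked after their values were seen, in each library, by library number (knockout 1 to 10 in red, wild-type 11 to 20 in blue). Wild-type libraries 19 and 20 are the highest 2 of 20 in all 6 panels, whose genes are shown for that reason.

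The DNA before the start sites of these genes was read for the core of the HIF binding motif, since P4ha1, P4ha2, Ddit4 and Bnip3 all peaked in wild-type library 19 or 20. Bnip3 in library 20 (812) was close to knockout 10 (798). Other HIF targets were the lowest of 20 there: Pdk1 (573) and Ankrd37 (123) in library 20, and Bnip3l (358) in library 19. The glycolytic gene Pfkp also peaked in library 20. A shared HIF response of these 2 libraries was not tested. RefSeq start sites on GRCm38.p6 were matched for 29 of the 31 genes, Bnip3l and Ndrg1 having none in the table used. The 250 bases before each start were searched on both strands for ACGTG. The variant that starts with G, GCGTG, was searched in the same way. The first form also lies inside the E-box that other factors bind, and an E-box then counts on both strands. These letters occurred in 26 of 29 genes (89.7%), 12 of 15 glycolytic genes (80.0%) and 14 of 14 HIF targets, against 11226 of 27025 genes with a start site (41.5%). Eno2, Gpi1 and Tpi1 had no match in this window. A gene counted when any of its windows matched, so genes with several start sites had more chances. The 29 genes had 43 windows, and the 27025 genes had 32851, of which 38.6% matched. The windows also differed in CG content: the median number of CG steps was 14 in the windows of these genes, 6 in all windows, and 14 in all windows with a match. A match describes letters only, and the 4 genes printed below were picked by their values in libraries 19 and 20. Among genes not printed, matches in 1 window reached 4 for Ankrd37, 3 for Hilpda, Pfkp and Pgam1, and 1 for Pdk1. The 4 windows, 5′ to 3′ on the gene's strand with matches in capitals, lie at chr10:59323046-59323295 (plus strand) for P4ha1, chr11:54100674-54100923 (plus) for P4ha2, chr10:59951771-59952020 (minus) for Ddit4 and chr7:138909507-138909756 (minus) for Bnip3, and hold 3, 3, 2 and 5 matches:
P4ha1: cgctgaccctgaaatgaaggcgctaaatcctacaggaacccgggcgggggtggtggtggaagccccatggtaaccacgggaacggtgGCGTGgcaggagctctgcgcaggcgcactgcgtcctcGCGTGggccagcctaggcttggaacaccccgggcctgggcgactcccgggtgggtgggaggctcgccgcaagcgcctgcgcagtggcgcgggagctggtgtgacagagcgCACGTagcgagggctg
P4ha2: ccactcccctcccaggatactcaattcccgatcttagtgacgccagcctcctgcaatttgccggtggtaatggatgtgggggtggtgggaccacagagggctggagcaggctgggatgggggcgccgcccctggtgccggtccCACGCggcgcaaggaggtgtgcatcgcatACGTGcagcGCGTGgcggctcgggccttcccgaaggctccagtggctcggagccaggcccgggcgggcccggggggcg
Ddit4: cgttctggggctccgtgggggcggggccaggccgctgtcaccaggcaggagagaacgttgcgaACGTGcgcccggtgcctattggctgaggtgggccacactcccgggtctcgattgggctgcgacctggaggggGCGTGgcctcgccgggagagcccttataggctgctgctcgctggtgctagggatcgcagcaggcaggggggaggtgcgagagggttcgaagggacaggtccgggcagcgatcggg
Bnip3: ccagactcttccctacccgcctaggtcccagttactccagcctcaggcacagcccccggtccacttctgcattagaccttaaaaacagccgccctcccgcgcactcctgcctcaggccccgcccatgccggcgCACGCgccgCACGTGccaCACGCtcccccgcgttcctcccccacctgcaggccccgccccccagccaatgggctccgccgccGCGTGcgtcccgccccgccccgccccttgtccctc

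Gpi1, Pdk1 and Ndrg1 rose with the acinar share of the library, as did many genes outside the module. Correlations of log2 level with the share of reads on acinar markers were computed over 20 libraries for all 17482 genes tested. By two-sided permutation, 7 of the 31 genes (22.6%) had an unadjusted p below 0.05, against 22.5% of all genes. After adjustment over all genes 3 of the 31 passed, against 6.21% of all genes. Both counts were near the share over all genes and are no result about the module. Gpi1 gave r = 0.68 and rho = 0.72 (permutation p 0.00079, adjusted 0.0221). Pdk1 gave r = 0.68 and rho = 0.78 (permutation p 0.00103, adjusted 0.0260), and Ndrg1 r = 0.66 and rho = 0.65 (permutation p 0.00102, adjusted 0.0258). The adjusted values that follow are over the 31 genes. Within genotypes r was 0.61 in knockout and 0.75 in wild-type libraries for Gpi1, 0.92 and 0.57 for Pdk1, and 0.72 and 0.70 for Ndrg1, and only that of Pdk1 in knockout libraries passed (adjusted permutation p 0.00279). Without wild-type 12 and knockout 5, the 2 libraries farthest from the median share, r fell to 0.59, 0.60 and 0.51, and none passed by r (adjusted permutation p 0.125, 0.125 and 0.221), so the pooled r values rest in part on those 2 libraries. By rho, 5 of 31 passed over 20 libraries: Gpi1, Pdk1, Ndrg1, Hk2 (adjusted permutation p 0.0330) and Car9 (0.0197). Gpi1, Pdk1 and Car9 still passed by rho without those 2 libraries (adjusted permutation p 0.0444, 0.0155 and 0.0444). Vegfa ran the other way without passing, at r = -0.45 and rho = -0.44 (adjusted permutation p 0.195 and 0.177).

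**Figure D5:**
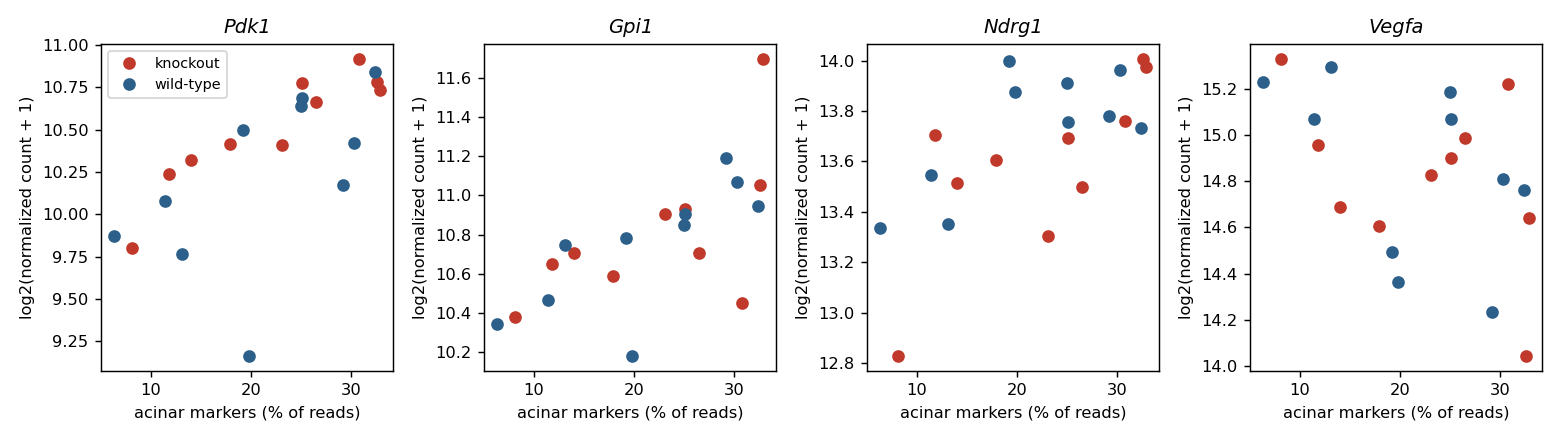
Log2 of the normalized read count plus 1 of Pdk1, Gpi1, Ndrg1 and Vegfa against the share of reads on 29 acinar markers (%), per library (red knockout, blue wild-type). The first 3 genes rise with the share (r = 0.68, 0.68 and 0.66) and Vegfa falls without passing (r = -0.45).

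The levels of the other genes were also compared with those of Bnip3, taken as a reference HIF target. Over 20 libraries, 0 of the 30 others passed by permutation test after adjustment over all genes, where 1.77% of all genes did. At an unadjusted p below 0.05 there were 3 of 30 (10.0%), a lower share than the 21.7% of all genes and no result about the module. All 3 were HIF targets, as were 15 of the 30. They were Ddit4 at r = 0.62 and rho = 0.58 (permutation p 0.00286, adjusted 0.0769), Hilpda at r = 0.56 and rho = 0.49 (permutation p 0.00896, adjusted 0.114) and Bnip3l at r = 0.45 and rho = 0.50 (permutation p 0.0465, adjusted 0.223). Without wild-type 20 and knockout 10, the extremes of Bnip3, r was 0.42 for Ddit4, 0.41 for Hilpda and 0.46 for Bnip3l. Bnip3 was chosen as a gene with few copies, but 62.4% of its stretches occur in other genes.

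Neighbouring steps of the pathway were described from 2 further lists, which share 4 genes. Of 36 other glycolysis and pyruvate genes, 0 passed in limma, 16 had positive and 20 negative differences, and 7 had an unadjusted p below 0.05, with a median log2 difference of -0.05. Pdk4, the pyruvate dehydrogenase kinase of fasting, had the smallest p: 414 ± 203 in knockout and 652 ± 205 in wild-type libraries (SD, n = 10 each), a log2 difference of -0.74 (SE 0.25, limma unadjusted p 0.00646, adjusted 0.338). Gpd2, the mitochondrial glycerol phosphate shuttle enzyme, had 2304 ± 369 and 3391 ± 1206 (-0.49, limma adjusted p 0.408). Ldhb, a lactate dehydrogenase, went the other way with 320 ± 111 and 221 ± 83 (0.56, limma adjusted p 0.448), as did Pdhb, a pyruvate dehydrogenase subunit, with 410 ± 95.8 and 330 ± 47 (0.29, limma adjusted p 0.528).

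The beta cell carrier Slc2a2 had 9864 ± 2397 in knockout and 13545 ± 4388 in wild-type libraries, a log2 difference of -0.42 (SE 0.19, limma unadjusted p 0.0415, adjusted 0.541). For Hk1 the difference was -0.23 (adjusted p 0.758) and for Ldha, a HIF-induced lactate dehydrogenase, 0.27 (adjusted p 0.821). None of these passed. Cell type markers had no member past the threshold either. Positive differences were seen for 24 of 29 acinar, 11 of 11 duct, 10 of 14 macrophage and 7 of 10 stellate and fibroblast markers. They were also seen for 5 of 12 endothelial and 4 of 11 beta cell markers, against 8664 of all 17482 genes. Negative ones were seen for 5 of 6 alpha and 6 of 6 delta and PP cell markers. Such counts are over genes and not over libraries, and summed shares of reads did not always go the same way. Their medians in knockout and wild-type libraries were 0.0492% and 0.0555% for duct markers. For stellate and fibroblast markers they were 0.0241% and 0.0273%, and for macrophage markers 0.00347% and 0.00293%. Alpha cell markers had 1.31% and 1.83%, and delta and PP cell markers 0.210% and 0.398%, both lower in knockout libraries like their gene counts. Beta cell markers had 27.7% and 27.2%, and endothelial markers 0.0560% and 0.0570%. The part of cell makeup in the values of Slc2a2, Gpd2 and Pdk4 was not tested.

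Of 42 other hypoxia genes tested, 0 passed in limma, 20 had positive and 22 negative differences, and 1 had an unadjusted p below 0.05. That gene was Arnt2, a partner subunit related to Arnt, with 148 ± 37.6 in knockout and 253 ± 99.6 in wild-type libraries (SD, n = 10 each). All 10 knockout libraries lay below the wild-type mean of log2 values, though the groups overlapped. The log2 difference was -0.71 (SE 0.24, limma adjusted p 0.338). With sample weights it was -0.82 with an adjusted p of 0.0470, and under the other alternatives the adjusted p ran from 0.0725 to 0.539. Insig2, Ak4 and Angptl4 followed with log2 differences of 0.19, 0.70 and 1.17 (limma adjusted p 0.582, 0.584 and 0.612).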

How the data were processed

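Islet RNA of 10 knockout and 10 wild-type libraries was sequenced after TruSeq RNA v2 preparation, which keeps no strand. The deposited table holds a signal per gene, namely read counts that the authors normalized with DESeq, per the file's name and the submitters' processing notes. Those notes list FastQC, TopHat 1.3.3, Bowtie 0.9.9, Cufflinks 1.3.0, DESeq 1.16.0 and mouse build mm9 without saying which did what. In each column 100% of values were whole multiples of a step within 0.05 reads, which gave back the read counts and the depth. Greater depth lowers the counting error of low genes such as Hk2 and Adm.

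Identifiers were named by GENCODE M21 (23950 of 26211; 2261 unnamed), whose build is GRCm38, so only names and exon lengths were taken from it. Promoter windows came from RefSeq (GRCm38.p6) and are not in the authors' build. Wild-type columns are numbered 11 to 20 where the labels count 1 to 10, so each was assigned to the wild-type group but to no numbered sample.

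Genotypes were compared with limma 3.58.1 under R 4.3.3 (lmFit, eBayes with trend) on log2 of the value plus 1. The 17482 genes averaging 10 or more were kept, with Benjamini-Hochberg adjustment and a threshold of 0.05. The pseudocount can understate changes of low genes, but the limma differences of low genes were not always smaller than those of edgeR. They were larger in size for Slc16a3 (-1.02 against -0.64) and Hk2 (0.67 against 0.10), and smaller for Gapdh (0.06 against 0.19). The test was checked on simulated data for this comparison of 17482 genes, with 200 changed. It recovered 18% of 1.5-fold, 62% of 2-fold and 74% of 4-fold changes, with 7 false calls among 118. The simulated noise was drawn separately for each gene and library, without variation that genes of a library share, such as that with acinar share. These rates therefore hold for that setting and may differ in the real libraries. Alternatives ran edgeR 4.0.16 or DESeq2 1.42.0 on recovered read counts, and also tried other pseudocounts and filters, TMM and quantile scaling, sample weights, acinar or macrophage covariates and each library left out. Leaving out wild-type libraries 19 and 20 together was added after seeing the data. Shares and correlations were tested by two-sided permutation with 100000 resamples, the correlations over all 20 libraries also for every gene tested. Intervals are at 95%, and floors for a count of 0 stand for 3 reads and cover counting error only.

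The genes and lists were chosen with earlier results of these data known. Values over each group are given for every one of the 31 genes, and per-library extremes for the 4 smallest p-values in each list and for Vegfa, Hk2, Gapdh, Pgk1 and Slc2a1. From the other lists, the 4 smallest p-values and Hif1a, Epas1, Arnt, Vhl, Hk1, Slc2a2 and Ldha are named. Ero1a is a second name of Ero1l, and Car12 fell below the filter. Values of 1 gene of these lists, and of the family shares that need it, are not reported here.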

Additional observations from a re-analysis of the deposited data

Results flagged for a closer look

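Each of the 31 genes was screened in both groups for a library far from the other 9 of its group, by the gap to the nearest value over the group's range, against Dixon's 95% critical value for 10 values. That limit lets chance pass about 1 in 20 groups when values are independent and normally distributed. The values were not logged and the groups share libraries, so this rate may not hold here. Of 62 groups, 8 passed. Knockout library 10 held 3 of them. Its Hk2 was 202, where the next was 74.5, its Gpi1 3319, next 2121, and its Adm 86.0, next 24.0. This library had the highest acinar share of all, 32.9%, and was the highest of 20 for 15.9% of all genes. Wild-type library 20 held 3 others, with Pfkm lowest at 3161, next 4701, and with Pfkp at 4412, next 2860, and Bnip3 at 812, next 531. The remaining cases were Hk2 at 277 in wild-type 13, next 86.2, and Pkm at 10668 in wild-type 16, next 8636.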

How the results depend on the processing

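No paired analysis was possible because the wild-type columns carry the numbers 11 to 20 and not the replicate numbers of the labels. The count of all genes past the threshold, 49, was 29 with a mean of at least 100, 163 with sample weights, 137 in DESeq2, 31 without wild-type libraries 19 and 20, and 27 to 74 with each library left out. It fell to 27 without knockout 4, 32 without knockout 8 or 9 and 31 without wild-type 19, and rose to 74 without knockout 6. Under none of these did any of the 31 genes pass. Their lowest adjusted p was 0.249, for Eno1, and 939 of 986 alternative values kept their sign. The acinar relations, 3 by r, numbered 0 without the 2 farthest libraries, 1 within knockout and 0 within wild-type libraries. Pgam1 changed sign with 1 library left out, and 9 others of the 31 also changed sign somewhere. With the macrophage covariate the log2 differences were -0.039 for Gpi1, -0.050 for Aldoa, -0.12 for Tpi1, 0.12 for Vegfa, 0.11 for Arnt, -0.030 for Epas1 and -0.014 for Ldha. Without wild-type 19 and 20 they were -0.013 for Gpi1, -0.0060 for Aldoa, -0.030 for Tpi1, 0.10 for P4ha1, 0.15 for P4ha2, 0.0081 for Kdm3a and 0.039 for Arnt. TMM gave -0.0086 for Aldoa, -0.0076 for Tpi1 and -0.0067 for Epas1, the acinar covariate -0.0028 and -0.014 for Aldoa and Tpi1, sample weights -0.0057 for Epas1, quantile scaling 0.025 for Vegfa, and edgeR and DESeq2 0.22 for Car9. With each library left out, the ranges were -0.029 to 0.052 for Aldoa, -0.090 to 0.046 for Arnt, -0.10 to 0.081 for Epas1, -0.17 to 0.23 for Gapdh, -0.041 to 0.11 for Gpi1, -0.068 to 0.038 for Kdm3a, -0.19 to 0.027 for P4ha2, -0.00040 to 0.15 for Pgam1, -0.051 to 0.11 for Tpi1, -0.10 to 0.055 for Vegfa and -0.22 to 0.0036 for Vhl. P2ry14 passed without knockout 5 (log2 difference -1.39, limma adjusted p 0.0283). The cause of these changes was not tested. At this depth and spread, changes under 2-fold could not be measured in Hk2, Slc16a3, Car9, Egln3 and Adm, whose intervals exceed it.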
